A study of Mus musculus with 16 samples.

Results

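Basophils, the rarest granulocytes of the marrow, were described in single-cell RNA-seq of mouse bone marrow sorted for CD45+/Ter119-/DAPI- cells. They were taken as cells with 3 or more unique molecular identifiers (UMIs, each counted mRNA molecule) summed over Mcpt8, Prss34 and Ms4a2, in which Elane and Prtn3 together made up less than 1% of the UMIs. This rule took 207 of the 31191 CD45+ marrow cells that passed quality filters, in a series with 73176 such cells in all. Because measured values of these 5 genes chose the cells, the levels of those genes are given below as description, without a test.

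There were 3 groups of 2 libraries each. The WT group (labelled ctrl) came from untreated BALB/c mice without a tumor. The vehicle and IACS-70654 groups came from female BALB/c mice that carried 2208L, a transplanted Trp53-null mammary tumor rich in neutrophils, and were 7 to 8 weeks old at transplantation. These mice received either methylcellulose vehicle or IACS-70654, an oral inhibitor of the bromodomain of the histone acetyltransferases CBP and P300, for 7 days in cycles of 3 days on and 2 days off. In the bone marrow part of the study's own text the course is given as a day shorter than in the series record. All of the mice were wild type, both tumor-bearing groups carried the same transplanted line, and tumor and treatment both set the IACS-70654 group apart from WT. Each sample held pooled cells of 3 mice, a pooling that the series record states per treated group and not per sample. Nothing says that the 2 libraries of a group came from separate animals, so the p-values below measure only the spread between these libraries, which may be technical.

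Basophils arise in the marrow from granulocyte progenitors under GATA2 and leave it as mature cells, living in blood for a short time. They carry the high-affinity IgE receptor, whose alpha chain is encoded by Fcer1a and beta chain by Ms4a2, and they store serine proteases such as those encoded by Mcpt8 and Prss34 in their granules. When triggered by IgE and antigen or by cytokines such as IL-3, IL-18 and IL-33, they release histamine, made by the enzyme encoded by Hdc, and secrete IL-4, IL-6 and chemokines.

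Windows around the annotated starts of the 3 genes that defined the cells are shown. These genes carry the identity of the population, and Gata2 was among its leading genes. Each window runs from 250 bases before to 50 bases after the annotated gene start in RefSeq annotation of GRCm38.p6, the assembly that mm10 stands for, and is written 5′ to 3′ along the gene's own strand. The start is the one that the RefSeq sequence table gives. For the minus-strand genes the RefSeq gene record reaches further upstream, to 56085499 for Mcpt8 and 11623790 for Ms4a2, so that the Mcpt8 window lies within its gene record. Capitals mark AGATAA or its reverse complement TTATCT, a core of the DNA motif that GATA factors recognize. The Ms4a2 window (chr19:11623670-11623969, minus strand) held 3 matches, the Prss34 window (chr17:25298144-25298443, plus strand) held 1, and the Mcpt8 window (chr14:56085148-56085447, minus strand) held 0.
Ms4a2: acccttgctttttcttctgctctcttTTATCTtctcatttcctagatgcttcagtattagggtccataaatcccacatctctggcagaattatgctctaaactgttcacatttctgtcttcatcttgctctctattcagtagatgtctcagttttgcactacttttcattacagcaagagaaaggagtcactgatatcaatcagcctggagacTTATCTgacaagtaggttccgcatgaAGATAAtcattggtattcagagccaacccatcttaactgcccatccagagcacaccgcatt
Prss34: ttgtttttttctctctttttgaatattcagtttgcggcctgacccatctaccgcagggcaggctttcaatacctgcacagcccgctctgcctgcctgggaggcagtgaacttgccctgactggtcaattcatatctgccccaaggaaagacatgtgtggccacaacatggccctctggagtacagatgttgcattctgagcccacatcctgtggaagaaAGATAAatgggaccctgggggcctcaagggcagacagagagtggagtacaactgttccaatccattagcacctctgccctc
Mcpt8: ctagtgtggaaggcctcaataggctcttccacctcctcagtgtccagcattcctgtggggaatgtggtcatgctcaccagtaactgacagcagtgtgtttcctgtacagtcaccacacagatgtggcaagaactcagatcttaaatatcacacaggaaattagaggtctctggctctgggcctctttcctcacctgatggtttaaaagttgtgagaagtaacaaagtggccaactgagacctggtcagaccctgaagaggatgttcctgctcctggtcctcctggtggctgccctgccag
Of all 32851 windows of this length, 11.2% held the motif on either strand, as did 337 of the 4681 windows matched to genes tested in basophils. Among the 25 genes that led the basophil profile, 18 had a window and 5 of these (27.8%) held it. The 25 include the 3 genes of the rule, whose place there follows from the choice of cells, and Ms4a2 and Prss34 are among the 5. Such a match describes the letters in the window and is not evidence of a bound site.

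Most of the cells carried RNA of basophil genes that the rule did not use, which does not tell mature from immature cells. UMIs were summed over the basophils of each library, scaled to a common library total (CPM) and averaged over the 6 libraries. Cpa3, a carboxypeptidase of basophil and mast cell granules, stood at 2541 CPM in basophils against 3.02 CPM in the other CD45+ cells, and Fcer1a at 871 against 0.580 CPM. Cd200r3, an activating receptor of basophils and mast cells, had 797 CPM in basophils and 0.668 CPM elsewhere, and Gata2 had 622 and 2.79 CPM. Also among the 25 leading genes were Cyp11a1, which starts steroid synthesis, the muscle LIM protein gene Csrp3 and the cadherin gene Cdh1. The list further held the chemokine genes Ccl3 and Ccl4, the growth factor genes Hgf and Angpt1, the Ikaros family gene Ikzf2 and the activation antigen Cd69.

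Of 11 basophil markers that the rule did not use, 189 of the 207 cells (91.3%) had 3 or more with a UMI, and 3 cells had none. The same count was met by 0 to 0.157% of neutrophils, 0.320 to 1.15% of monocytes and 0 to 0.318% of B cells in the 6 libraries. In basophils it fell across the groups, from 91 of 94 WT (96.8%) to 55 of 60 vehicle (91.7%) and 43 of 53 IACS-70654 cells (81.1%). Of cells with 3 to 9 marker UMIs, 39 of 57 met it, and 11 of 21 (52.4%) in IACS-70654. All cells with 10 or more marker UMIs met it. These 11 markers left out Hdc and Lmo4, a choice made after it was seen that other marrow cells express both. The genes that define connective tissue mast cells were near 0, with 1 UMI of Cma1 and none of Mcpt4, Tpsb2 or Tpsab1 over all 207 cells, and 5 of 8 mast cell markers were at 0. Other markers of that list were present. Kit had a UMI in 51 of the 207 cells, and Mitf in 9 WT, 11 vehicle and 9 IACS-70654 cells. The 8 markers together had 117 CPM in basophils against 53.6 CPM in the other CD45+ cells. Among eosinophil genes, Prg2 and Prg3, which encode granule major basic proteins, came from single cells: 1 cell in each WT library held all 52 and 28 UMIs of Prg2.

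The cells that passed the rule were not uniform. Marker UMIs per cell ran from 3 to 1049 with a median of 66. For description they were divided at 10 and 30 marker UMIs into 57, 32 and 118 cells. Near these cuts lay 17 cells at 8 to 12 and 4 at 25 to 35 marker UMIs. The top range was dominated by granule proteases, with Mcpt8 at 15411 CPM and Prss34 at 16599 CPM, whereas the middle range held 1239 and 142 CPM. Ms4a2 changed far less across these ranges (1366 and 912 CPM). The middle range was the highest of the 3 in Ccl9 (1611 CPM, against 462 in the top range) and Il18r1 (535 against 180 CPM), which encode a chemokine and the IL-18 receptor. These values pool all libraries, and the middle range held 10 and 10 cells of the WT, 1 and 4 of the vehicle and 4 and 3 of the IACS-70654 libraries, so that differences between the groups enter them. The lowest range held the most RNA of the immature cell genes Kit and Myb, at 164 and 415 CPM against 41.0 and 168 CPM in the top range. Proliferation genes went the other way, with Mki67 at 86.7 and Top2a at 198 CPM against 422 and 488 CPM in the top range. Mpo and Ctsg, genes of early neutrophils, stood at 1170 and 2340 CPM in the top range against 947 and 625 CPM in the other CD45+ cells. The cells called basophils here thus include proliferating cells and were not separated by maturity. The lowest range also held the most S100a9, a neutrophil gene (14262 against 2855 CPM). Since the ranges were cut on a count that the rule used, these are descriptions of ranges and not of cell types.

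Cells close to the threshold were the least certain. There were 17 cells with exactly 3 marker UMIs, of which 8 also had 3 or more independent markers, and 96 cells with 2 marker UMIs lay just outside. Another 22 cells had enough marker UMIs but were left out for Elane and Prtn3, proteases of early neutrophils. In neutrophils, which should lack the rule genes, 4.61 to 6.83% of cells per library had at least 1 UMI of them, at a median depth of 3905 to 6133 UMIs per cell. A count of 10 or more marker UMIs was reached by 76 WT, 42 vehicle and 32 IACS-70654 cells, and the tests between groups were repeated on these cells alone.

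The libraries differed in depth in step with the groups. The median kept cell held 4113 and 4276.5 UMIs in the WT, 5330.5 and 5328 UMIs in the vehicle and 6534 and 6596.5 UMIs in the IACS-70654 libraries, and the summed basophils of a library held 269592 to 468329 UMIs. No cell barcode was shared between any of the 15 pairs of CD45+ libraries. A doublet caller marked 0.0164 to 0.0978% of cells in 5 libraries and 1.92% in WT replicate 1, so it had not worked and no cell was removed by it. In 10 basophils, S100a8 and S100a9, abundant calcium-binding proteins of neutrophils, made up 3% or more of the UMIs, and 6 of these 10 were in the IACS-70654 libraries (3 in WT, 1 in vehicle). Whether these were doublets, free RNA or cells between lineages was not tested.

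Basophils made up about 1% of CD45+ marrow cells in WT mice and a smaller share in both tumor-bearing groups. The WT libraries held 46 and 48 basophils, the vehicle libraries 30 and 30, and the IACS-70654 libraries 28 and 25. Their share was 1.00% (95% exact binomial interval 0.736 to 1.34) and 1.09% (0.807 to 1.45) in WT, 0.587% (0.396 to 0.837) and 0.493% (0.33 to 0.703) in vehicle, and 0.576% (0.383 to 0.831) and 0.406% (0.263 to 0.599) in IACS-70654 libraries. Both WT libraries lay above all 4 libraries of tumor-bearing mice, and the 2 tumor-bearing groups overlapped. With each cell thinned to 1500 UMIs before the rule was applied, since depth rose with the groups, the WT libraries held 0.838% and 0.986% basophils, the vehicle libraries 0.447% and 0.359% and the IACS-70654 libraries 0.315% and 0.282%, so that the tumor-bearing groups no longer overlapped. They did not overlap either for cells with 10 or more marker UMIs, at 0.391% and 0.361% with vehicle against 0.329% and 0.260% with IACS-70654. The basophils themselves had a median depth of 9647 UMIs with vehicle and 9509 UMIs with IACS-70654, so thinning also acted as a stricter marker limit. Both of these settings depend on the RNA level of the rule's own genes. Neither separation is therefore a test of the number of basophils. The intervals cover counting error only.

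As means ± SD over 2 libraries, the shares were 1.05% ± 0.0621 in WT, 0.540% ± 0.0665 in vehicle and 0.491% ± 0.120 in IACS-70654. The ratio was 0.515 for vehicle to WT, 0.468 for IACS-70654 to WT and 0.909 for IACS-70654 to vehicle, the last being 0.742 after thinning and 0.782 in cells with 10 or more marker UMIs. Exact two-sided permutation tests gave p = 0.33, 0.33 and 0.667, where 0.33 is the smallest p that 2 against 2 libraries allow, so no difference in share could pass a threshold of 0.05. The neutrophils of the same libraries set much of the denominator, and among kept cells other than neutrophils the order changed: the WT libraries had 3.26% and 3.36% basophils, the vehicle libraries 4.59% and 4.08% and the IACS-70654 libraries 3.26% and 2.34%. Vehicle thus lay below WT among all cells and above WT among cells other than neutrophils.

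**Figure D1:**
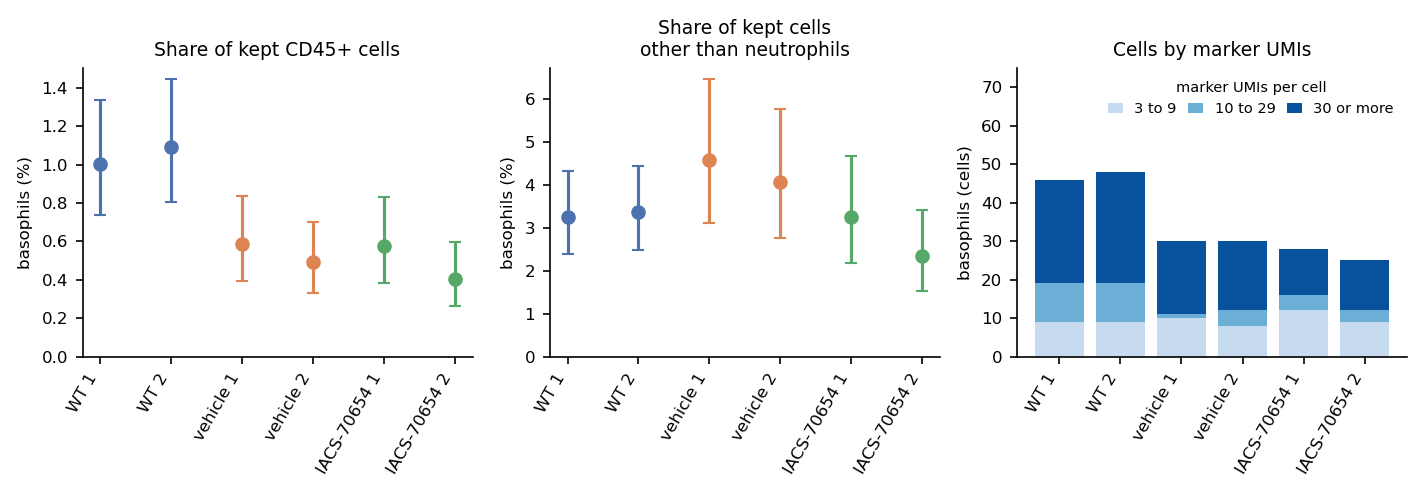
Basophils as percent of kept CD45+ cells (left) and of kept cells other than neutrophils (middle) in each library, with 95% exact binomial intervals as bars, and the number of basophils by marker UMIs (right). WT libraries are highest at 1.00% and 1.09% of all kept cells, while vehicle libraries are highest among cells other than neutrophils at 4.59% and 4.08%.

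The mix of marker ranges also moved with the groups. The WT libraries held 27 and 29 cells with 30 or more marker UMIs, the vehicle libraries 19 and 18 and the IACS-70654 libraries 12 and 13. Cells with 3 to 9 numbered 9 and 9, 10 and 8, and 12 and 9 in the same order. The middle range, whose cells per library are given above, made up a share of CD45+ cells in vehicle that was 0.191 of that in WT, a description that rests on 1 and 4 vehicle cells. The lowest range therefore held 18 of 94 WT, 18 of 60 vehicle and 21 of 53 IACS-70654 cells. Within the top range the median was 364 marker UMIs per cell in WT, 333 in vehicle and 197 in IACS-70654. Mcpt8 had 8938 and 13154 CPM in the WT, 9366 and 10823 CPM in the vehicle and 5605 and 5219 CPM in the IACS-70654 libraries. Prss34 had 9261 and 13532 CPM in the WT, 11757 and 12609.5 CPM in the vehicle and 4959 and 3673 CPM in the IACS-70654 libraries, the lowest values again in the IACS-70654 libraries. Ms4a2 had 986 and 1235 CPM in the WT, 829 and 965 CPM in the vehicle and 823 and 801 CPM in the IACS-70654 libraries. Summed RNA by itself does not separate fewer cells of a kind from less RNA per cell. Counted by cell, Prss34 had a UMI in 20 of 30 and 17 of 30 vehicle and in 12 of 28 and 11 of 25 IACS-70654 cells. The top-range median of marker UMIs given above was also lower with IACS-70654 than with vehicle. Both are counts of the rule's own genes, so they are description and do not separate these readings either.

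Tumor-bearing vehicle mice were compared with WT mice to ask how basophils differ in the presence of the tumor. The WT mice were untreated, so tumor, transplantation and dosing with vehicle cannot be told apart here. Basophils of vehicle mice held less RNA for the inflammatory chemokine Ccl4, for histidine decarboxylase (Hdc) and for the NF-kB feedback inhibitor Tnfaip3, and more for Tex14 and Apoe. Protease, transcription factor, ribosomal and respiratory genes showed few or no calls. Of 5834 genes tested, 33 passed edgeR's quasi-likelihood test at an adjusted p under 0.05 (0.566%), 10 higher (0.171%) and 23 lower (0.394%) in vehicle.

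Mediators held 5 of the lower calls. Of 26 mediator genes, 16 were tested and these 5 fell, against a background of 0.394% for lower calls over all genes, with a median log2 difference of -0.60 beside 0.00 over all genes tested. Ccl4, which attracts monocytes and lymphocytes, had 1285 and 861 CPM in WT against 166 and 220.1 CPM in vehicle libraries (log2 difference -2.45, SE 0.22, edgeR adjusted p = 1.24e-07). All 4 libraries of tumor-bearing mice lay below both WT libraries, and the UMIs came from 33 and 34 WT cells and from 11 and 14 vehicle cells. Hdc had 865 and 745 CPM in WT against 263 and 346 CPM in vehicle libraries (log2 difference -1.38, SE 0.19, edgeR adjusted p = 2.55e-04), again without overlap. Ccl3, Ccl6 and Ccl9, chemokines made by basophils and other myeloid cells, fell by 0.82, 0.96 and 1.00 on the log2 scale, with an edgeR adjusted p of up to 0.446 without vehicle replicate 1, 0.225 without vehicle replicate 1 and 0.261 without WT replicate 2. Their calls did not hold in cells with 10 or more marker UMIs, where edgeR's adjusted p was 0.697, 0.849 and 0.78, whereas Ccl4 (0.00134) and Hdc (0.0291) still passed. Hdc, Ccl3, Ccl4, Ccl9, Il18r1 and Il7r had their highest CPM in the middle range of marker UMIs, which held fewer cells in vehicle than in WT, and the part of that range in these calls was not tested.

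Among 33 tested receptor genes, 0 rose and 4 fell, beside 0.394% of all genes called lower, with a median log2 difference of -0.32. Il7r, which encodes the IL-7 receptor alpha chain, also used by the TSLP receptor, had 87.5 and 107 CPM in WT against 20.7 and 25.2 CPM in vehicle libraries (log2 difference -2.04, SE 0.35, edgeR adjusted p = 0.00365). Both vehicle libraries lay below both WT libraries, and the adjusted p was 0.0505 without vehicle replicate 1. Il18r1 had 275 and 298 CPM in WT against 133 and 138 CPM in vehicle libraries (log2 difference -1.05, SE 0.24, edgeR adjusted p = 0.0373, and 0.225 without vehicle replicate 1), and Csf2rb, the signalling chain shared by the IL-3, IL-5 and GM-CSF receptors, had 404 and 444 CPM in WT against 213 and 233 CPM in vehicle libraries (log2 difference -0.90, SE 0.19, edgeR adjusted p = 0.0249, and 0.23 without WT replicate 2). Lilrb4a, an inhibitory immunoglobulin-like receptor, had 261 and 272 CPM in WT against 142 and 113 CPM in vehicle libraries (log2 difference -1.03, SE 0.22, edgeR adjusted p = 0.0227, and 0.21 without vehicle replicate 2). None of these 4 passed in cells with 10 or more marker UMIs, where their adjusted p lay between 0.153 and 0.870. The log2 difference of Il7r was -1.96 in those cells, while it was -0.58 for Csf2rb, -0.63 for Il18r1 and -0.60 for Lilrb4a.

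Tnfaip3, which encodes the ubiquitin-editing enzyme A20, was the 1 call among 6 tested NF-kB response genes, beside 0.394% of all genes called lower. It had 275 and 179.5 CPM in WT against 74.0 and 78.6 CPM in vehicle libraries (log2 difference -1.55, SE 0.26, edgeR adjusted p = 0.00336), but it did not pass in cells with 10 or more marker UMIs (log2 difference -1.41, adjusted p = 0.153 by edgeR). Klf6, 1 of 17 immediate early genes, also fell (log2 difference -0.99, SE 0.23, edgeR adjusted p = 0.0361, and 0.583 without vehicle replicate 1), as did the transcription factor gene Cebpe (log2 difference -2.91, SE 0.53, edgeR adjusted p = 0.00582, and 0.0658 without vehicle replicate 2), for which 1 cell of WT replicate 2 held 96.9% of the UMIs. Klf6 had an edgeR adjusted p of 0.56 in cells with 10 or more marker UMIs, where Cebpe had too few UMIs to be tested. Of the 24 transcription factor genes tested, Cebpe was the only call, and Gata2 stood at 583 and 739.9 CPM in WT against 609.6 and 673 CPM in vehicle libraries (edgeR adjusted p = 0.985).

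Higher calls were fewer. Tex14, best known for intercellular bridges of germ cells, had 414 and 398 CPM in WT against 761 and 909 CPM in vehicle libraries (log2 difference 1.06, SE 0.18, edgeR adjusted p = 0.00365), and it passed in cells with 10 or more marker UMIs as well (0.00312 by edgeR). Apoe, which encodes a lipid carrier, had 273 and 335 CPM in WT against 734 and 692 CPM in vehicle libraries (log2 difference 1.26, SE 0.20, edgeR adjusted p = 0.0024), and its adjusted p in cells of 10 or more marker UMIs was 0.8. Thsd4, a matrix protein gene, had 0 UMIs in both WT libraries and 12 and 25 UMIs in 6 and 5 cells of the vehicle libraries, at least 16.6-fold higher against a floor of 3 UMIs over the group. Cd74, H2-Aa and H2-Ab1, of antigen presentation by MHC class II, were called higher, but 1 cell of vehicle replicate 1 held 99.3% of its Cd74 and 99.1% of its H2-Aa UMIs. Without that library edgeR's adjusted p was 0.912 for Cd74 and 0.991 for H2-Aa.

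Only 6 of the 33 calls held when each of the 6 libraries was left out in turn (Apoe, Ccl4, Hdc, Prg2, Tex14 and Tnfaip3), and only Ccl4, Hdc and Tex14 also held in both restricted sets of cells, those with 10 or more marker UMIs (3 of 4260 genes called, 0.0704%, 1 higher, 0.0235%, and 2 lower, 0.0469%) and those with S100a8 and S100a9 under 3% of UMIs. Neutrophil marker genes summed to 15378 and 7391.9 CPM in WT and 6477.7 and 10459 CPM in vehicle libraries, values that overlapped. The 8 eosinophil markers summed to 247.69 and 228.04 CPM in WT and 26.6 and 44.0 CPM in vehicle libraries, without overlap, and both members that could be tested, Prg2 and Prg3, were called lower. Of all genes, 0.394% were called lower, and the Prg2 call rests on the single cell in each WT library named above.

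IACS-70654 was compared with vehicle in tumor-bearing mice to ask what inhibition of the CBP/P300 bromodomain did to basophils. Basophils of treated mice held more Il7r and cyclin D2 RNA. They held less RNA for the cytokines Il4 and Il6, for the cytotoxic granule gene Nkg7, for galectin-1 (Lgals1), for the receptor Cd244a and the sialyltransferase St8sia6, and for the proliferation marker Mki67. Neutrophil granule genes rose in the sum of all basophils but not in those with 10 or more marker UMIs. Of 5834 genes tested, 92 were called by edgeR (1.58%), 30 higher (0.514%) and 62 lower (1.06%) in IACS-70654, and 610 had an unadjusted p under 0.05.

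Il7r rose from the lowest to the highest level of the 3 groups, with 87.5 and 107 CPM in the WT, 20.7 and 25.2 CPM in the vehicle and 204 and 171 CPM in the IACS-70654 libraries. The IACS-70654 libraries did not overlap with either of the other groups (log2 difference 3.00, SE 0.33, edgeR adjusted p = 3.96e-06 against vehicle). The UMIs came from 15 and 11 cells in IACS-70654 and 6 and 4 cells in vehicle. The call held in cells with 10 or more marker UMIs (log2 difference 3.15, adjusted p = 1.57e-04 by edgeR), without the cells rich in S100a8 and S100a9, and without each library in turn. Il7r was 1 of 2 calls among 33 receptor genes, and the other was Cd69, an early activation antigen, which fell (log2 difference -1.19, SE 0.29, edgeR adjusted p = 0.0256, and 0.272 without IACS-70654 replicate 2) and did not pass in cells with 10 or more marker UMIs (0.129 by edgeR). The median of the receptor list was -0.08 on the log2 scale, and 1.58% of all genes were called in either direction. Fcer1a stood at 1160.0 and 852 CPM in vehicle against 597 and 675 CPM in IACS-70654 libraries, without overlap but not past the threshold (edgeR adjusted p = 0.0918).

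Of the 16 mediator genes tested, 2 fell and 0 rose, beside 1.06% of all genes called lower. Il4, the signature type 2 cytokine of basophils, had 91.7 and 62.9 CPM in vehicle against 26.0 and 10.5 CPM in IACS-70654 libraries (log2 difference -2.10, SE 0.46, edgeR adjusted p = 0.0115). It was detected in 13 and 15 vehicle and 6 and 3 IACS-70654 cells, and its adjusted p was 0.173 without IACS-70654 replicate 2. Il6 had 254 and 189 CPM in vehicle against 70.5 and 83.9 CPM in IACS-70654 libraries (log2 difference -1.53, SE 0.27, edgeR adjusted p = 0.00145), and 1 cell held 59.3% of its UMIs in vehicle replicate 1. Both groups were fully apart for each cytokine, and the WT libraries overlapped vehicle, at 72.6 and 77.6 CPM for Il4 and 235 and 175 CPM for Il6. Hdc and Ccl4, low in vehicle, stayed low in IACS-70654, at 359.8 and 367 CPM and 289 and 252 CPM, and differed from vehicle by 0.25 (edgeR adjusted p = 0.761) and 0.48 (adjusted p = 0.509) on the log2 scale.

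Of 6 tested genes of the granule and protease list, rule genes aside, 3 were called, all lower, beside 1.06% of all genes called lower. Lgals1, whose product binds beta-galactosides, had 1595 and 1468 CPM in vehicle against 512 and 672 CPM in IACS-70654 libraries (log2 difference -1.38, SE 0.19, edgeR adjusted p = 3.70e-05), and it fell in each restricted set of cells too. Ctsg, which encodes cathepsin G, had 2054 and 2097 CPM in vehicle against 1387 and 1249 CPM in IACS-70654 libraries (log2 difference -0.67, SE 0.17, edgeR adjusted p = 0.0398, and 0.229 without IACS-70654 replicate 2), and its neighbors in the azurophil program, Elane and Prtn3, were limited by the rule. Gzmb, encoding granzyme B, had 68.1 and 138 CPM in vehicle against 11.1 and 0 CPM in IACS-70654 libraries (log2 difference -4.17, SE 0.66, edgeR adjusted p = 2.96e-04) from no more than 4 cells in any of these libraries. Cpa3 went the other way without passing the test, at 1829 and 2638 CPM in vehicle against 3023 and 3501 CPM in IACS-70654 libraries (edgeR adjusted p = 0.233), and in cells with 10 or more marker UMIs it did pass as higher (log2 difference 0.67, adjusted p = 0.033).

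Several surface and signalling genes were almost lost. St8sia6, a sialyltransferase that makes ligands for inhibitory Siglec receptors, had 88.8 and 119 CPM in vehicle against 0 and 3.50 CPM in IACS-70654 libraries (log2 difference -5.61, SE 0.68, edgeR adjusted p = 9.64e-06), which was 1 UMI in all IACS-70654 basophils. Cd244a, a SLAM family receptor of NK cells and granulocytes, had 56.2 and 94.3 CPM in vehicle against 3.71 and 3.50 CPM in IACS-70654 libraries (log2 difference -4.26, SE 0.63, edgeR adjusted p = 1.27e-04), from 14 and 16 cells in vehicle and 1 and 1 in IACS-70654. Dpp4, which encodes the peptidase CD26, had 0 UMIs in the IACS-70654 libraries and 35.5 and 62.9 CPM in vehicle libraries, at least 9.03-fold lower against a floor of 3 UMIs over the group. The WT libraries had 61.9 and 82.5 CPM for St8sia6 and 83.3 and 104 CPM for Cd244a.

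Nkg7, a granule membrane protein best known from NK and T cells, had 379 and 270.4 CPM in vehicle against 48.2 and 77.0 CPM in IACS-70654 libraries (log2 difference -2.38, SE 0.28, edgeR adjusted p = 7.43e-06). It was the 1 tested gene of a T and NK marker list whose 7 genes summed to 394 and 292 CPM in vehicle and 81.6 and 97.9 CPM in IACS-70654 libraries, so the list moved with Nkg7. Trf, encoding transferrin, had 142 and 154 CPM in vehicle against 33.4 and 28.0 CPM in IACS-70654 libraries (log2 difference -2.27, SE 0.33, edgeR adjusted p = 8.37e-05), and Itga2b, encoding the integrin alpha-IIb of megakaryocytes, which basophils share with their progenitors, had 112 and 123 CPM in vehicle against 29.7 and 38.5 CPM in IACS-70654 libraries (log2 difference -1.78, SE 0.33, edgeR adjusted p = 0.00241). The Itga2b call did not hold with each library left out in turn. The sodium-calcium exchanger gene Slc8a1 had 319.6 and 286 CPM in vehicle against 100.2 and 115 CPM in IACS-70654 libraries (log2 difference -1.50, SE 0.25, edgeR adjusted p = 7.64e-04). Tex14 and Apoe, higher in vehicle than in WT, were lower again in IACS-70654, at 312 and 238 CPM for Tex14 and 163 and 255 CPM for Apoe (-1.62 and -1.77 on the log2 scale). These 2 comparisons share the vehicle libraries. Tex14 passed in cells with 10 or more marker UMIs, where Apoe and Slc8a1 did not (edgeR adjusted p = 0.257 and 0.068). Gzmb and Dpp4 had too few UMIs in those cells to be tested.

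**Figure D2:**
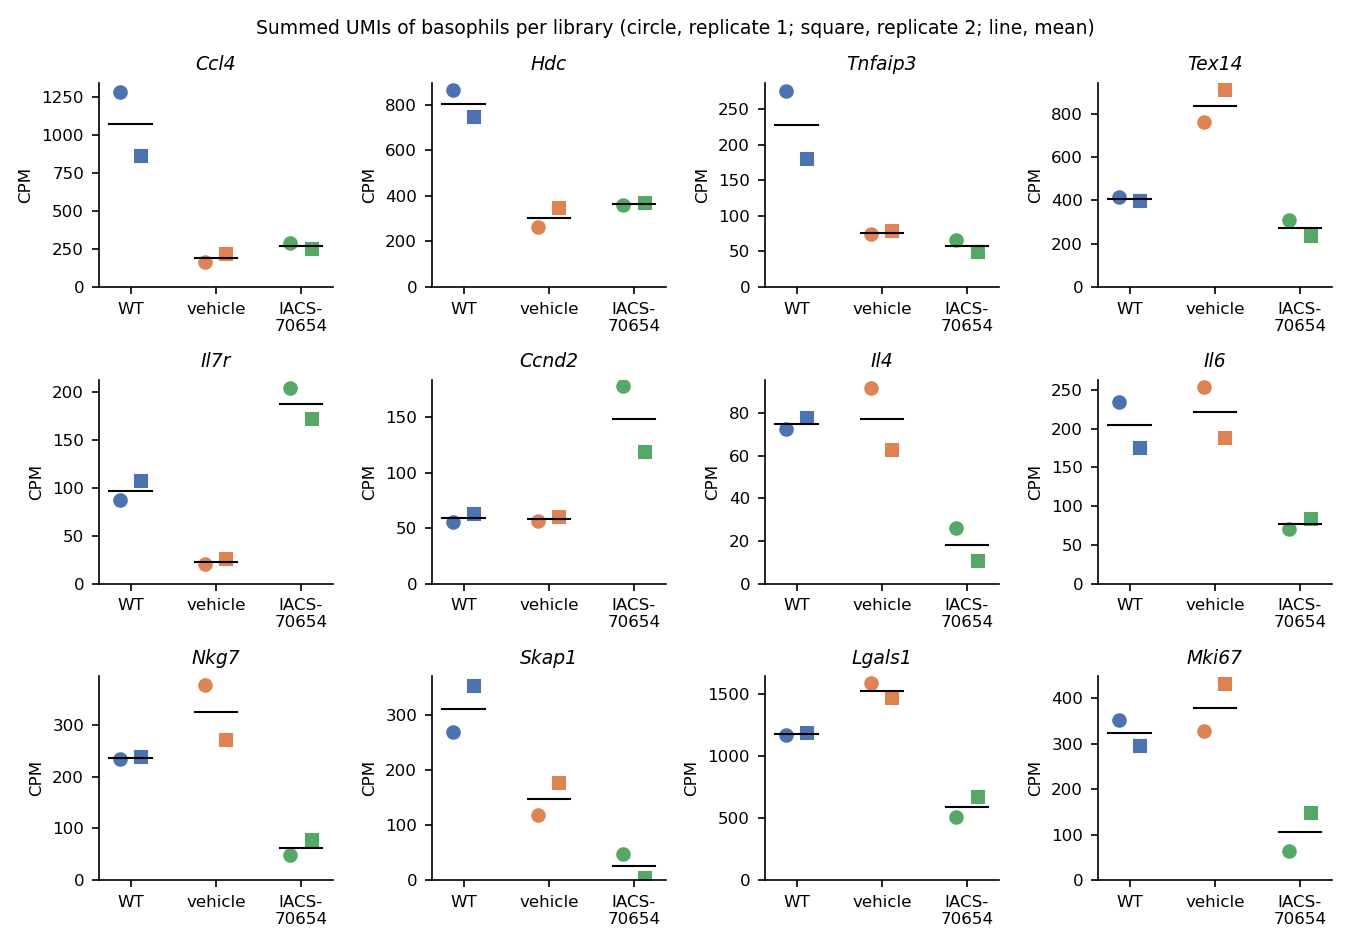
Summed UMIs of basophils per library in CPM (vertical axes, from 0) for 12 genes, with replicates as circles and squares and group means as lines. Ccl4, Hdc and Tnfaip3 are high in WT alone, Il7r and Ccnd2 are highest in IACS-70654, and Il4, Il6, Nkg7, Skap1, Lgals1 and Mki67 are lowest there.

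Proliferation genes leaned lower with IACS-70654. Of 41 tested cell cycle genes, 33 had a negative log2 difference, 3 fell and 0 rose, with a median of -0.42 beside 0.00 over all genes, of which 1.06% were called lower. Of 34 tested in cells with 10 or more marker UMIs, 7 fell, where 1.2% of all genes were called lower. Mki67 had 328 and 431 CPM in vehicle against 63.1 and 147 CPM in IACS-70654 libraries (log2 difference -1.85, SE 0.27, edgeR adjusted p = 1.14e-04), while Cenpf and Cenpe, kinetochore proteins, were called lower too (log2 differences -1.83 and -1.39, edgeR adjusted p = 0.0244 and 0.0457). The adjusted p was 0.373 without IACS-70654 replicate 1 and 0.493 without vehicle replicate 2. Ccnd2, which encodes the G1 cyclin D2, went the other way, at 56.2 and 59.7 CPM in vehicle against 178 and 119 CPM in IACS-70654 libraries (log2 difference 1.33, SE 0.29, edgeR adjusted p = 0.0139, and 0.304 without IACS-70654 replicate 1). It was the 1 call among 8 tested G1 regulators, beside 0.514% of all genes called higher, and held in cells of 10 or more marker UMIs (edgeR adjusted p = 0.00209).

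Interferon, antigen presentation and metabolic genes showed few calls. Over all genes, 0.514% were called higher and 1.06% lower. Of 15 tested type I interferon genes, 11 had a positive log2 difference, with a median of 0.22 beside 0.00 over all genes. None passed as higher and 1 fell, Ifitm1, with 1776 and 1487 CPM in vehicle against 931 and 479 CPM in IACS-70654 libraries (log2 difference -1.24, SE 0.22, edgeR adjusted p = 0.00126, and 0.0505 without IACS-70654 replicate 2). The difference was larger in cells with 10 or more marker UMIs (log2 difference -3.09, adjusted p = 1.03e-07 by edgeR), where 1 of 10 tested interferon genes, Mndal, passed as higher (log2 difference 1.65, edgeR adjusted p = 0.0269), beside 0.282% of all genes. None of 18 MHC class I, 80 ribosomal protein, 98 oxidative phosphorylation, 14 glycolysis, 17 immediate early, 6 NF-kB response, 4 STAT5 target and survival, 19 lysosome or 19 acetylation and Myc network genes was called in either direction by edgeR, and of 4 MHC class II genes H2-Aa alone fell (log2 difference -2.92, SE 0.69, edgeR adjusted p = 0.0244, and 0.986 without vehicle replicate 1). Crebbp and Ep300, the genes of the drug's targets, had 118 and 142 CPM in vehicle against 197 and 175 CPM in IACS-70654 libraries for the former and 118 and 107 CPM in vehicle against 126 and 133 CPM in IACS-70654 libraries for the latter (adjusted p = 0.445 and 0.878).

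Among 12 tested genes that the study named in marrow, which were chosen on these samples and are no independent evidence, 3 rose and 0 fell. The 3 were Stfa2, Stfa3 and Cstdc5, cystatin-like protease inhibitors of neutrophils. They moved together with neutrophil markers, of which 7 of 11 rose and 0 fell, with a median log2 difference of 1.92. Of all genes, 0.514% were called higher. The 11 markers summed to 6477.7 and 10459 CPM in vehicle and 37920 and 32460 CPM in IACS-70654 libraries, and none of them was at 0. S100a9 had 2725 and 3286 CPM in vehicle against 16209.7 and 15849 CPM in IACS-70654 libraries (log2 difference 2.40, SE 0.22, edgeR adjusted p = 2.97e-07), and Camp, encoding a neutrophil antimicrobial peptide, had 453 and 579 CPM in vehicle against 3119.5 and 2179 CPM in IACS-70654 libraries (log2 difference 2.35, SE 0.24, edgeR adjusted p = 1.23e-06). One cell held 86.4% of the Camp UMIs of IACS-70654 replicate 1, and another 82.3% of those of replicate 2.

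Restricting the cells ended these neutrophil calls. In basophils with 10 or more marker UMIs, 1 of 8 tested study genes rose (Malat1, a nuclear noncoding RNA) and 1 fell (Ms4a3, of early neutrophils and basophil progenitors). Of all genes tested in those cells, 0.282% were called higher and 1.2% lower. The log2 difference there was -0.12 for S100a9 and -0.09 for Camp, and 0 of 7 tested neutrophil markers were called. The summed markers were then 6511.9 and 8096.2 CPM in vehicle and 7225.8 and 6940 CPM in IACS-70654. Without the 10 cells rich in S100a8 and S100a9, a filter that by its own construction lowers those 2 genes and others of neutrophils that such cells hold, Camp differed by -0.24 (edgeR adjusted p = 0.757) and Cstdc5 by -0.27 (0.857). Cebpe, called higher in all basophils (log2 difference 3.70, SE 0.51, edgeR adjusted p = 4.61e-05), had an adjusted p of 0.102 without those cells.

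**Figure D3:**
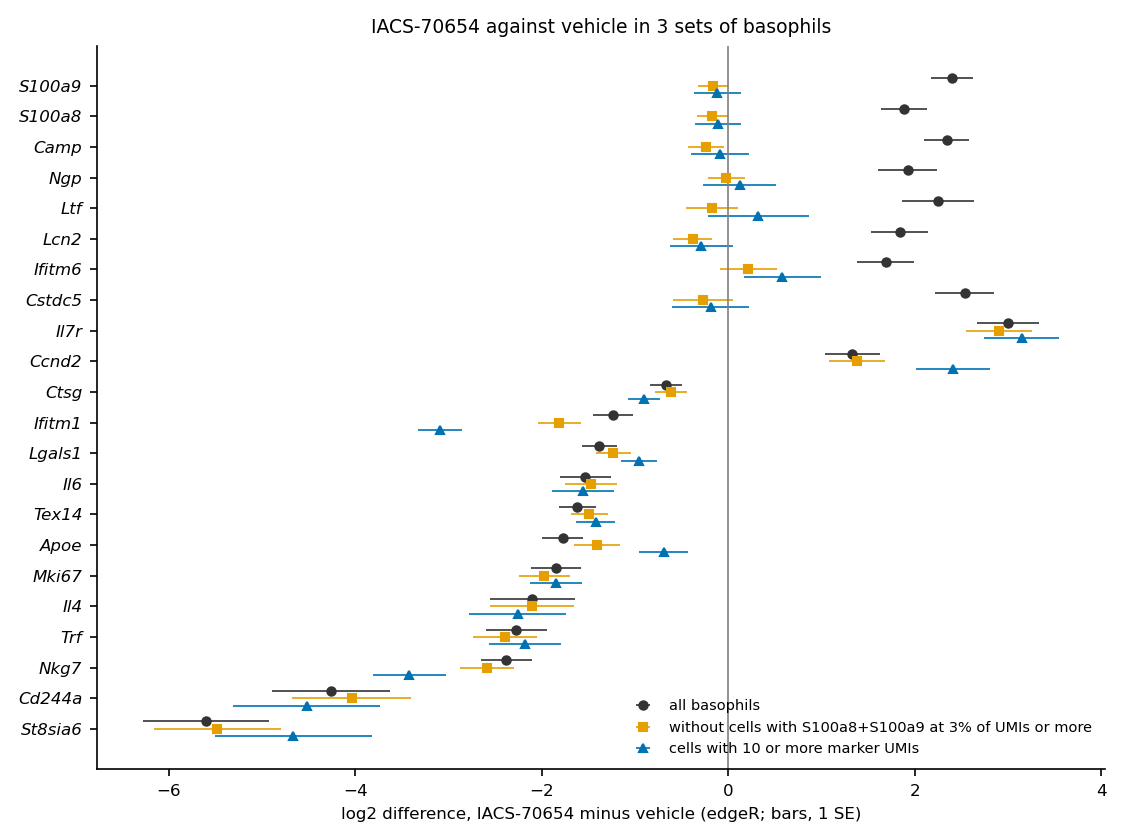
Log2 difference of IACS-70654 minus vehicle (horizontal axis, edgeR, bars 1 SE) for 22 genes in all basophils, without the 10 cells with S100a8 and S100a9 at 3% of UMIs or more, and in cells with 10 or more marker UMIs. The upper 8 genes, of neutrophils, lie near 0 in both restricted sets, while Il7r stays near 3 and Il4, Il6, Nkg7 and Mki67 stay below -1.

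Of the 92 calls, 88 could be tested without the cells rich in S100a8 and S100a9 and 49 of these held (7 higher, 42 lower). Of 74 that could be tested in cells with 10 or more marker UMIs, 34 held (4 higher, 30 lower), and 29 of the 92 held with each library left out in turn. These counts include genes that the rule used. Among cells with 10 or more marker UMIs, 4260 genes could be tested, and 63 were called between IACS-70654 and vehicle (1.48%), 12 higher (0.282%) and 51 lower (1.2%).

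IACS-70654 was also set against WT, to show which basophil differences from mice without a tumor remained under treatment. This comparison shares its WT libraries with the first and its IACS-70654 libraries with the second. Basophils of treated mice were lower in 9 of 16 tested mediator genes and 7 of 33 tested receptor genes, and the lower calls outnumbered the higher ones. Of 5834 genes tested, 141 were called by edgeR (2.42%), 34 higher (0.583%) and 107 lower (1.83%), and 742 had an unadjusted p under 0.05.

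Of 16 tested mediator genes, 9 fell and 0 rose, with a median log2 difference of -1.10 beside 0.01 over all genes, of which 1.83% were called lower. Ccl4 (-1.98), Hdc (-1.14) and Ccl9 (-1.85) fell in all basophils and in cells with 10 or more marker UMIs. Osm, which encodes oncostatin M, had 173 and 148 CPM in WT against 55.6 and 42.0 CPM in IACS-70654 libraries (log2 difference -1.71, SE 0.30, edgeR adjusted p = 7.86e-04), and Csf1, encoding the macrophage growth factor, had 252 and 272 CPM in WT against 55.6 and 122 CPM in IACS-70654 libraries (log2 difference -1.53, SE 0.27, edgeR adjusted p = 7.86e-04, and 0.0579 without IACS-70654 replicate 1). Of the 9, 5 also passed in cells with 10 or more marker UMIs (Ccl4, Hdc, Ccl9, Ccl6 and Csf1), whereas Osm (0.0812), Il4 (0.0746), Il6 (0.166) and Ccl3 (0.208) did not by edgeR's adjusted p. Il4, Il6, Ccl3 and Ccl6 made up the other calls, and all 4 lost them when 1 library was left out (edgeR adjusted p 0.156 without IACS-70654 replicate 2, 0.0523 without IACS-70654 replicate 1, 0.0622 without IACS-70654 replicate 2 and 0.0622 without IACS-70654 replicate 2).

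Of 33 tested receptor genes, 7 fell and 1 rose, with a median log2 difference of -0.40. Of all genes, 1.83% were called lower and 0.583% higher. Cd69 had 439.9 and 264 CPM in WT against 119 and 73.5 CPM in IACS-70654 libraries (log2 difference -1.87, SE 0.26, edgeR adjusted p = 6.82e-05) and Lilrb4a had 261 and 272 CPM in WT against 77.9 and 73.5 CPM in IACS-70654 libraries (log2 difference -1.80, SE 0.25, edgeR adjusted p = 4.83e-05), and both also fell in cells with 10 or more marker UMIs. The tetraspanin gene Cd9, Il18r1, Il18rap, the IL-3 receptor gene Il3ra and the integrin gene Itga2 fell in all basophils but did not pass in those cells, where their adjusted p lay between 0.0626 and 0.603. Il7r was the receptor that rose (log2 difference 0.96, SE 0.24, edgeR adjusted p = 0.0279), although its adjusted p was 0.28 without WT replicate 1. Of 6 granule and protease genes, Srgn, the proteoglycan that packs granule proteases, fell with 3098 and 3595 CPM in WT against 1677 and 2078 CPM in IACS-70654 libraries (log2 difference -0.82, SE 0.17, edgeR adjusted p = 0.00631, and 0.206 without WT replicate 2), and so did Lgals1 (log2 difference -0.98, SE 0.19, edgeR adjusted p = 0.00205, and 0.0767 without IACS-70654 replicate 1). Neither passed in cells with 10 or more marker UMIs (edgeR adjusted p = 0.0568 and 0.149), while Cpa3 passed there as higher (log2 difference 1.10, adjusted p = 0.00101).

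Skap1, an adaptor of integrin signalling, had 269 and 354 CPM in the WT, 118 and 176 CPM in the vehicle and 48.2 and 3.50 CPM in the IACS-70654 libraries. No group overlapped another, and IACS-70654 was lower than WT (log2 difference -3.60, SE 0.39, edgeR adjusted p = 4.84e-06), also in every restricted set of cells. Tyrobp, the signalling adaptor DAP12, had 1503 and 1577 CPM in WT against 783 and 514 CPM in IACS-70654 libraries (log2 difference -1.24, SE 0.19, edgeR adjusted p = 1.58e-04), and Rgs1, a regulator of chemokine receptor signalling, had 284 and 274 CPM in WT against 81.6 and 66.5 CPM in IACS-70654 libraries (log2 difference -1.90, SE 0.29, edgeR adjusted p = 1.40e-04). Lower calls, 1.83% of all genes, included 2 of 6 tested NF-kB response genes, whose median log2 difference was -0.03, and 3 of 17 immediate early genes, with a median of -0.10. These were Tnfaip3 and Nfkbia (-1.97 and -0.93) and Fosb, Ier3 and Klf6 (-1.36, -1.02 and -1.45). Of 41 cell cycle genes 5 fell, and Mitf, of the mast cell and basophil lineage, rose (log2 difference 1.70, SE 0.45, edgeR adjusted p = 0.0365, and 0.31 without WT replicate 2). Nfkbia, Fosb and Ier3 lost their calls with a library left out (edgeR adjusted p 0.332 without IACS-70654 replicate 1, 0.0988 without IACS-70654 replicate 2 and 0.0653 without IACS-70654 replicate 2). In cells with 10 or more marker UMIs Tnfaip3 passed (edgeR adjusted p = 0.0433), whereas Nfkbia (0.283), Fosb (0.177), Ier3 (0.187) and Klf6 (0.0626) did not, and Mitf had too few UMIs to be tested. Of 34 cell cycle genes tested there, 4 fell. Among the 5 cell cycle genes called in all basophils, Mki67 alone held with each library left out in turn. Of the 141 calls, 46 held with each library left out in turn, and 26 of those held in both restricted sets of cells. The 46 include Prss34, Elane and Prtn3, and the 26 include Prss34, genes that the rule used and for which this is no test. In cells with 10 or more marker UMIs, 62 of 4260 genes were called (1.46%), 12 higher (0.282%) and 50 lower (1.17%).

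A sizeable part of the basophils expressed proliferation genes, and the mean share was lowest in the treated group. To compare cells of different depth, each cell was thinned to 2000 UMIs and counted as cycling when 10 or more of these came from the cell cycle list. That held for 28.9% and 23.4% of basophils in the WT, 33.3% and 37.9% in the vehicle and 17.9% and 24.0% in the IACS-70654 libraries. Vehicle lay above both other groups and IACS-70654 overlapped WT. The means ± SD were 26.1% ± 3.88, 35.6% ± 3.25 and 20.9% ± 4.34, and exact two-sided permutation tests gave p = 0.33 for vehicle against WT, 0.33 for IACS-70654 against vehicle and 0.667 for IACS-70654 against WT, none of which could have passed. In all, 3 shallower cells could not be thinned, 1 in each WT library and 1 in vehicle replicate 2, and the unthinned shares by 0.5% of UMIs were 28.3% and 22.9%, 33.3% and 36.7%, and 17.9% and 24.0%.

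The order of the groups was the same in cells with 10 or more marker UMIs. There the share was 32.4% and 28.2% in the WT, 40.0% and 45.5% in the vehicle and 25.0% in each of the IACS-70654 libraries. By library the share lay between 25.0% and 55.6% in cells with 30 or more marker UMIs, and between 0 and 22.2% with 3 to 9. Monocytes of the same libraries had 32.3% and 27.6%, 34.5% and 34.6%, and 24.5% and 27.5%. B cells had 22.4% and 20.1%, 23.8% and 27.3%, and 9.76% and 4.88%, the last pair from 41 and 82 cells, whereas neutrophils had 12.1 to 13.8% throughout.

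**Figure D4:**
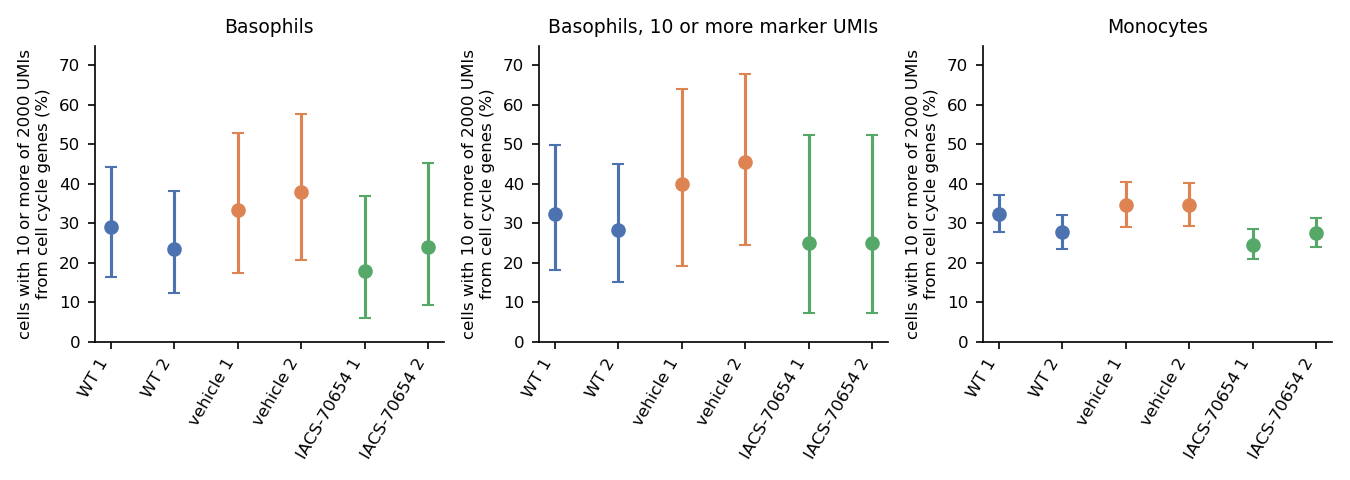
Percent of cells with 10 or more of 2000 thinned UMIs from cell cycle genes in basophils, in basophils with 10 or more marker UMIs and in monocytes, by library, with 95% exact binomial intervals as bars. Vehicle libraries are the highest in basophils (33.3% and 37.9%) and the intervals of basophil libraries overlap widely.

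The response to IACS-70654 was then compared with that of other cells of the same libraries, to ask where basophils differed. In neutrophils IACS-70654 against vehicle changed 8504 of 14225 tested genes (59.8%) by edgeR, and in monocytes 2178 of 11718 (18.6%), numbers that are not comparable with the 92 in basophils because the summed cells were 25038 and 2541 against 207. The difference between the responses was tested as an interaction. It was called for 515 of 13692 genes against neutrophils (3.76%), 249 with the higher (1.82%) and 266 with the lower effect in basophils (1.94%), and the split was 129 and 736 when libraries were scaled by their totals alone. Against monocytes it was called for 93 of 11317 genes (0.822%), 55 higher (0.486%) and 38 lower (0.336%), and the split turned to 40 higher and 62 lower with basophils of 10 or more marker UMIs.

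Il7r went opposite ways. While it rose in basophils, its log2 difference was -1.01 in neutrophils (difference of the log2 effects 4.05, SE 0.51, edgeR adjusted p = 1.11e-12) and -2.43 in monocytes (difference of the log2 effects 5.36, SE 0.55, edgeR adjusted p = 1.29e-10). Hdc, which neutrophil precursors express as well, did not pass the test in basophils and fell by 1.52 on the log2 scale in neutrophils (difference of the log2 effects 1.78, SE 0.21, edgeR adjusted p = 3.21e-14). Il18r1 differed by -0.04 in basophils and -3.36 in monocytes (difference of the log2 effects 3.25, SE 0.43, edgeR adjusted p = 4.04e-07). All of these held in basophils with 10 or more marker UMIs.

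Other genes were higher with the drug in neutrophils or monocytes and not in basophils. Ctsg, lower in basophils, had a log2 difference of 1.89 in neutrophils (difference of the log2 effects -2.55, SE 0.17, edgeR adjusted p = 1.01e-47) and 0.56 in monocytes (difference of the log2 effects -1.25, SE 0.17, edgeR adjusted p = 1.07e-06). Chn2, which encodes the Rac regulator beta-chimaerin, had 234 and 270.4 CPM in vehicle against 211 and 276 CPM in IACS-70654 libraries in basophils, a log2 difference of -0.06, against 3.31 in neutrophils (difference of the log2 effects -3.35, SE 0.29, edgeR adjusted p = 2.68e-27) and 2.14 in monocytes (difference of the log2 effects -2.22, SE 0.26, edgeR adjusted p = 9.56e-09). Nkg7, Ifitm1 and Lgals1 fell in basophils and had log2 differences of 0.82, 0.83 and 0.56 in neutrophils (edgeR adjusted p of the difference 2.68e-27, 1.61e-26 and 1.68e-23). The chaperone gene Calr, of the endoplasmic reticulum, had -0.49 in basophils and 1.33 in neutrophils (difference of the log2 effects -1.81, SE 0.17, edgeR adjusted p = 1.06e-22). Neutrophil genes such as S100a9, Camp and Ltf also differed in all basophils, and none of these 3 differences passed in cells with 10 or more marker UMIs (edgeR adjusted p = 0.481, 0.591 and 0.118). S100a9 helped to define the neutrophil and monocyte classes, so its difference is description and no test. The limit on Elane and Prtn3, for basophils alone, left out 0 and 5 vehicle and 5 and 7 IACS-70654 cells. Elane, Prtn3, Mpo, Ctsg and Ms4a3 summed in neutrophils to 2386 and 1886 CPM with vehicle and 8027 and 8239 CPM with IACS-70654. In monocytes they summed to 5281 and 5723 CPM and to 9532 and 8931 CPM. The part of that limit and these sums in the differences was not tested.

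The rule also took 1392 cells in the Lin- c-Kit+ marrow libraries of the same study, a sort for progenitors, where they made up 4.88% and 4.11% of kept cells for the WT libraries, 8.64% and 8.32% for the vehicle libraries and 2.39% and 2.18% for the IACS-70654 libraries. These are shares of another sorted population and cannot be set on 1 scale with the CD45+ shares. Whether both sorts used the same mice is not given in the sources used here. The median c-Kit+ cell taken held 4 marker UMIs in each IACS-70654 library, against 11 for vehicle replicate 1 and 15 for vehicle replicate 2. Only 35 and 12 of the IACS-70654 cells reached 10 marker UMIs, where the vehicle libraries held 302 and 131 such cells. The part of this shift in the differences below was not tested. Against the c-Kit+ cells the response of CD45+ basophils differed for 36 of 8461 genes (0.425%), 26 higher (0.307%) and 10 lower (0.118%). Cd244a and St8sia6 were among the 10 lower. Ctsg, Chn2, Nkg7, Ifitm1, Lgals1 and Calr, which differed from neutrophils, were not among them, which does not show an equal response. Within the c-Kit+ cells themselves, 8.09% of 9930 genes were called between IACS-70654 and vehicle. The split of the 36 differences turned to 2 higher and 14 lower in cells with 10 or more marker UMIs and to 17 higher and 20 lower without IACS-70654 replicate 2. Mki67 fell in CD45+ basophils and had a log2 difference of 0.25 in the c-Kit+ cells (difference of the log2 effects -2.10, SE 0.28, edgeR adjusted p = 1.38e-04), a difference that held without each library and in cells with 10 or more marker UMIs (8.09e-05). Cenpf and Ccnb2, of mitosis, had 0.25 and 0.47 in the c-Kit+ cells against -1.83 and -1.29 in CD45+ basophils (edgeR adjusted p of the difference 0.0147 and 0.031), and neither held without each library in turn (up to 0.448 and 0.491). Csf2rb had -1.05 in c-Kit+ cells and 0.48 in CD45+ basophils (difference of the log2 effects 1.53, SE 0.22, edgeR adjusted p = 3.12e-04), and in cells with 10 or more marker UMIs the adjusted p of that difference was 0.0907. Fcer1a had -2.05 and -0.68 (difference of the log2 effects 1.37, SE 0.22, edgeR adjusted p = 0.00118), a difference with an adjusted p of up to 0.0549 when a library was left out, and one that turned to -0.47 (adjusted p = 0.652) when both sets were limited to cells with 10 or more marker UMIs.

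**Figure D5:**
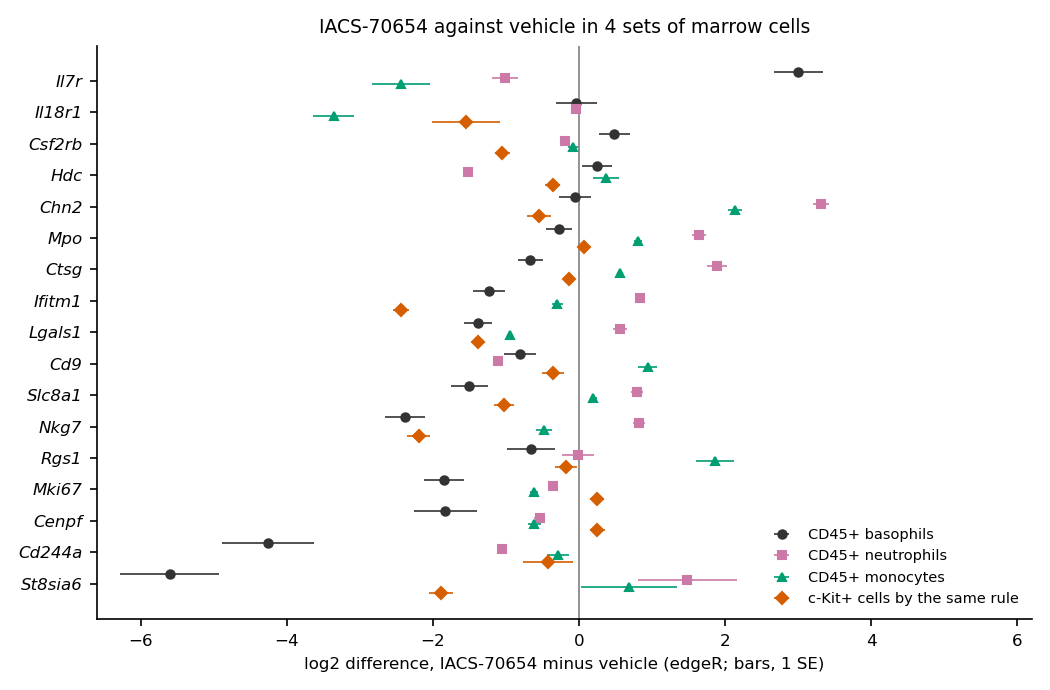
Log2 difference of IACS-70654 minus vehicle (horizontal axis, edgeR, bars 1 SE) for 17 genes in CD45+ basophils, CD45+ neutrophils, CD45+ monocytes and c-Kit+ cells taken by the same rule. Il7r lies at 3.00 in basophils and below 0 in neutrophils and monocytes, while Ctsg, Ifitm1, Lgals1, Slc8a1 and Nkg7 lie below 0 in basophils and above 0 in neutrophils.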

How the data were processed

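Cells were sorted from bone marrow as CD45+/Ter119-/DAPI- or Lin- c-Kit+ cells and sequenced with 10x Genomics 3' chemistry and CellPlex tags. The deposited matrices hold raw UMI counts per gene and cell, which the authors made with Cell Ranger 7.2.0 (per the file headers) and the mm10 genome (per the labels), one filtered matrix per library and not normalized. Cells with 201 to 5999 genes and at most 10% mitochondrial UMIs were kept. The cells, lists and comparisons were chosen with earlier results of these data known. Neutrophils were kept cells, not basophils, with S100a8 and S100a9 at 3% of UMIs or more. Monocytes were those of the rest with 3 or more UMIs of Csf1r, F13a1 and Ccr2, and B cells those then left with 3 or more of Cd79a and Cd79b.

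Counts were summed over the basophils of a library (at least 20 cells, or as few as 12 where cells were limited to 10 or more marker UMIs) and tested in R 4.3.3 by edgeR 4.0.16 (quasi-likelihood test, TMM scaling, filterByExpr, all 6 libraries in 1 model, Benjamini-Hochberg adjusted p under 0.05). Differences between cell classes were interaction terms in such models. Values given as log2 differences come from these models, and CPM are UMIs of a gene scaled to the library's basophil total. Depth was 269592 to 468329 summed UMIs per library. Shares were compared by exact two-sided permutation tests in scipy 1.17.1 with exact Clopper-Pearson intervals of 95%. Named genes were called members of the lists, genes the study named in marrow, the 10 non-list genes of lowest adjusted p per direction whose groups did not overlap, the 25 leading genes, and the 10 differences between cell classes of lowest adjusted p per direction. Other genes given with values, such as Itga2b, Dpp4, Fcer1a, Cpa3, Gata2 and Skap1 or Csf2rb and Fcer1a in further comparisons, were picked after their values were seen, and 1 gene that met the rule is not reported here. The procedure was tested on simulated data. Alternatives were DESeq2 1.42.0, other scalings and filters, restricted cells, a replicate block and each library left out. Replicate numbers did not pair the libraries.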

Additional observations from a re-analysis of the deposited data

Results flagged for a closer look

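In 3 comparisons the response of basophils to IACS-70654 differed from that of other cells, by edgeR's test of the difference itself. Against neutrophils 515 of 13692 genes differed, with Il7r, Hdc, Ctsg and Chn2 among them. Against monocytes 93 of 11317 genes differed, again with Il7r and Chn2. Against the cells that the same rule took from the c-Kit+ libraries 36 of 8461 genes differed, with Mki67 among them. Ctsg and Chn2 were not among those with the lower effect in CD45+ basophils. The classes differed in cell number and depth, and the limit on Elane and Prtn3 did not apply to neutrophils and monocytes. Early neutrophil genes were higher with IACS-70654 in the sums of neutrophils and monocytes. Marker UMIs per cell were lower with IACS-70654 in the c-Kit+ cells. The part of all of these in the differences was not tested.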

How the results depend on the processing

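Of 2841 refits of the named genes' differences, 2408 kept their direction and their side of the threshold, 382 kept the direction but no longer passed, 15 came to pass and 36 turned. For shares and counts of genes, the values that moved by more than the limits set here were as follows, and their causes were not tested except where the alternative itself had fewer cells or genes. Among kept cells other than neutrophils the vehicle share exceeded the WT share by 1.02 percentage points, and with no limit on Elane and Prtn3 the IACS-70654 share exceeded the vehicle share by 0.0182 points. With 5 of 2000 UMIs as the limit for cycling, IACS-70654 exceeded WT by 1.40 points. Genes called for vehicle against WT, IACS-70654 against vehicle and IACS-70654 against WT were 4, 32 and 56 by DESeq2, and 11, 48 and 76 at an adjusted p under 0.01 with a log2 change over 0.5. Without a filter on low counts the first 2 were 61 and 156. In cells with 10 or more marker UMIs those against WT were 3 for vehicle and 62 for IACS-70654, and without cells rich in S100a8 and S100a9 the second was 61. With the replicate block the first 2 counts were 16 and 61; the numbers did not pair the libraries, with correlations of their deviations of -0.05, -0.029 and 0.031, and no sample was re-paired. The differences from neutrophils numbered 865 with library totals only, 181 by DESeq2 and 223 with 10 or more marker UMIs, those from monocytes 19 by DESeq2, and those from c-Kit+ cells 83 without a filter and 16 with 10 or more marker UMIs.

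Leaving out each library in turn gave 17 to 47 genes for vehicle against WT, 53 to 145 for IACS-70654 against vehicle and 86 to 181 for IACS-70654 against WT, and 219 to 459, 27 to 118 and 6 to 49 differences from neutrophils, monocytes and c-Kit+ cells. The lone library of a group was then assumed to vary like the other groups. The IACS-70654 share minus the vehicle share ran from -0.134 to 0.0357 points, the latter without IACS-70654 replicate 2. H2-Aa in vehicle against WT ran from -0.0826 to 3.65 and Stfa3 in IACS-70654 against WT from -0.189 to 3.26 on the log2 scale.

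The log2 differences that turned were nearly all of neutrophil genes. In cells with 10 or more marker UMIs, IACS-70654 against vehicle gave -0.19 for Cstdc5, -0.12 for S100a9, -0.0901 for Camp, -0.11 for S100a8 and -0.29 for Lcn2. Against WT it gave -0.80 for S100a9, -0.68 for Camp, -0.79 for S100a8 and -0.51 for Wfdc21, and vehicle against WT gave -3.70 for Cd74. Without cells rich in S100a8 and S100a9, IACS-70654 against vehicle gave -0.27 for Cstdc5, -1.12 for Stfa2, -0.17 for S100a9, -0.24 for Camp, -0.17 for S100a8, -0.38 for Lcn2, -0.019 for Ngp and -0.17 for Ltf. Against WT it gave -0.14 for Cstdc5, -0.67 for Stfa2, -0.12 for S100a9, -0.15 for Camp, -0.31 for Chil3, -0.15 for S100a8 and -0.16 for Cstdc4. With 10 or more marker UMIs the difference from monocytes was -0.33 for S100a9, -0.0766 for Camp, -0.29 for Cstdc5 and -0.30 for Lcn2, and that from c-Kit+ cells -0.40 for S100a9, -0.13 for Pglyrp1, -0.47 for Fcer1a, -0.58 for Anxa1 and -1.16 for S100a8. With 25 to 48 basophils per library, differences of 2-fold were often below what could be called.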
